A study of Mus musculus with 6 samples.

Results

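The genes described here encode the nuclear-made subunits of respiratory complexes II to V and cytochrome c in mouse IgM and IgG1 plasma cells. Members were chosen by symbol: Sdha, Sdhb, Sdhc, Sdhd, Cyc1 and Cycs, every symbol starting with Uqcr or Atp5, and every symbol starting with Cox and a digit, without pseudogene symbols. Of 24346 symbols, 58 met this rule, and 53 of them passed a filter on low values, an FPKM (fragments normalised to transcript length and mapped depth) of 1 or more in any 3 of the 6 libraries. The same filter kept 9087 genes in all, and each of the 53 members reached it in libraries of both groups. They were 4 subunits of complex II, 9 of complex III, Cycs, 12 subunits of complex IV, 10 Cox genes that are mostly assembly factors of complex IV, 15 subunits of complex V, and Atp5s and Atp5sl, which carry the Atp5 name without being core subunits. The 5 members that did not pass were all tissue-restricted isoforms of complex IV subunits. Cox7b2, Cox8b and Cox8c were listed at 0 in all 6 libraries, Cox6a2 reached at most 1.45 FPKM and Cox6b2 at most 1.67 FPKM.

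The study compared RNA from plasma cells of the mouse spleen, with 3 libraries from IgM plasma cells and 3 from IgG1 plasma cells. In both groups the cells descended from congenically marked B1-8germ B cells, which carry a knocked-in antibody heavy chain gene and had been transferred into C57BL/6J wild-type hosts. The hosts were then immunised with NP-CGG in alum, and donor-derived plasma cells of each isotype were sorted on day 7. The cells thus share 1 knocked-in heavy chain, were taken at a single early time, and came from hosts that keep their own B cells. No age of the mice is given. Whether the libraries of a group are separate mice is not stated in the labels, so a p-value here reflects variation among 3 libraries, and this variation may be technical.

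The respiratory chain lies in the inner mitochondrial membrane. Complex II is succinate dehydrogenase, which oxidises succinate in the citric acid cycle and hands the electrons to coenzyme Q; complex III passes electrons from coenzyme Q to cytochrome c and pumps protons; complex IV passes them from cytochrome c to oxygen and pumps protons as well. Complex V, the ATP synthase, lets the protons flow back through a membrane ring and uses the rotation to make ATP, which antibody-secreting cells need for folding and exporting immunoglobulin.

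Promoters of respiratory genes often hold sites for NRF1, for ETS factors such as GABPA, and for YY1, so their letters are shown for 5 genes whose values the results turn on. Each window runs 5′ to 3′ on the gene's strand from 220 bases before to 30 bases after the RefSeq start in GRCm38.p6, and capitals mark exact matches on either strand to GCGCA, any base, GCGC (NRF1), to CCGGAAG (ETS) or to AAGATGGC (YY1). Sdhb (chr4:140961051-140961300, plus strand) and Sdha (chr13:74350211-74350460, minus strand) encode subunits of 1 enzyme, of which Sdhb passed the test and Sdha did not. Uqcr11 (chr10:80406792-80407041, minus strand) had the largest difference in complex III, and Atp5e (chr2:174464072-174464321, minus strand) and Atp5l (chr9:44920713-44920962, minus strand) had the largest in complex V.
Sdhb: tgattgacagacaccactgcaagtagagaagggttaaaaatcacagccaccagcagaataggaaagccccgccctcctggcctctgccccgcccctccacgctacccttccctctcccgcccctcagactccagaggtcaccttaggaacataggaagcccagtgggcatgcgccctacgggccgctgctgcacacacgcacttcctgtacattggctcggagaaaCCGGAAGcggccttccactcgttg
Sdha: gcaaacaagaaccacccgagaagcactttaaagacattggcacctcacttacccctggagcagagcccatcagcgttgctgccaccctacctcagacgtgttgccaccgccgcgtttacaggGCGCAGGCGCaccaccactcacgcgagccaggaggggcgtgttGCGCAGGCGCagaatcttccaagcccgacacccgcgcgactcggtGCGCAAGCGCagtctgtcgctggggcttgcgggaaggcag
Uqcr11: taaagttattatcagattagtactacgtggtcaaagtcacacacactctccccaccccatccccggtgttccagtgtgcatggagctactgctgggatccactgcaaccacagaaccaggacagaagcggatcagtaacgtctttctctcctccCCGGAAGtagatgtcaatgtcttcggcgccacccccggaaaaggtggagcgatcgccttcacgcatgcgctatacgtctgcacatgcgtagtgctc
Atp5e: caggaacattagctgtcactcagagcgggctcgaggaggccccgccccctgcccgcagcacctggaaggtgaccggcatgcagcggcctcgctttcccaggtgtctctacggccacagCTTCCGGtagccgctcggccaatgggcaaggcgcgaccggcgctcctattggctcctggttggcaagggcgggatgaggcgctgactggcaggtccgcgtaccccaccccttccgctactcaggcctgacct
Atp5l: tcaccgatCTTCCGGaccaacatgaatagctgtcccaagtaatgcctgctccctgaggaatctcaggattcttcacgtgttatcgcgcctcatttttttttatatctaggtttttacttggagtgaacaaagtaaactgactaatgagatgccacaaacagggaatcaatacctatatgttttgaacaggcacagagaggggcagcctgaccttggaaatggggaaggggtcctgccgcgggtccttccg
The Sdha window holds 3 NRF1 matches that begin 98, 55 and 10 bases before the start and no ETS match. The Sdhb window holds 1 ETS match that begins at base 7 after the start. In Uqcr11 the ETS match begins 66 bases before the start, in Atp5e it lies on the opposite strand 102 bases before it, and in Atp5l on the opposite strand 212 bases before it.

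Over the full RefSeq windows of 250 bases before to 50 after the start, 42 of the 53 tested members had an entry. The ETS letters stood in 17 of them (40.5%), against 24.5% of the 7031 tested genes with a window and 9.93% of all 27025 symbols with a window. They stood in 9 of 18 members that were higher in IgG1 and in 8 of 24 that were not. By the same split the NRF1 letters stood in 5 of 18 and 5 of 24, and the YY1 letters in 1 of 18 and 5 of 24. In all, the NRF1 letters stood in 10 members (23.8%), against 13.6% of tested genes and 5.19% of all symbols with a window. The YY1 letters stood in 6 members (14.3%), against 6.47% and 3.19%. A match is a description of the letters and does not show that a factor binds there.

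Across the libraries, estimated depth was 15000000 to 17500000 fragments, read from the smallest FPKM step, which is approximate. All 10 plasma cell markers passed the filter, with a summed level of 44450 to 50300 FPKM in IgM and 36910 to 39490 in IgG1. Of these, Jchain, the joining chain of secreted IgM, took 24812 to 28583 FPKM in IgM and 14208 to 16961 in IgG1. The plasma cell markers did not move together. Jchain, Prdm1, Irf4, Tnfrsf17 and Slamf7 were lower in IgG1, with log2 fold changes of -0.77, -1.02, -0.73, -2.92 and -0.60. Their limma adjusted p were 0.00389, 0.0222, 0.0153, 1.23e-06 and 0.0405. Sdc1, Xbp1, Mzb1, Cd38 and Ell2 did not pass the test, at 0.10, 0.25, 0.19, -0.06 and -0.10. Of 10 B cell markers 5 passed, with sums of 1326 to 1543 FPKM in IgM and 1689 to 2034 in IgG1, mostly Cd79b, while the B cell factor Pax5 was listed at 0 in all 6. T cell marker sums were 2.73 to 4.73 FPKM in IgM and 1.13 to 7.29 in IgG1, those of monocytes and macrophages 9.45 to 16.4 and 6.19 to 9.77, and those of NK cells, neutrophils, erythroid cells and platelets were each at most 9.20 FPKM in a library.

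The respiratory genes were higher in IgG1 plasma cells or did not pass the test, and none passed it in the lower direction. Of the 53 members 21 (39.6%) were higher in IgG1 at an adjusted p under 0.05 and 0 were lower (limma on log2(FPKM + 1), Benjamini-Hochberg over 9087 genes), where 4.26% of all tested genes were higher and 1.76% were lower. At an unadjusted p under 0.05, 35 members were higher and 0 lower. The median log2 fold change of the members, IgG1 minus IgM, was 0.37, against -0.05 over all tested genes, and 47 members had a positive value. In 33 members (62.3%) all 3 IgG1 libraries lay above all 3 IgM libraries, against 13.7% of tested genes, and in 0 members did all IgG1 libraries lie below, against 13.5%. The 21 members that rose spanned log2 fold changes of 0.50 to 0.86 on the log2(FPKM + 1) scale, where the added 1 shrinks the change of genes with low FPKM. In such bulk samples fewer cells of a type and less RNA per cell cannot be told apart.

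**Figure D1:**
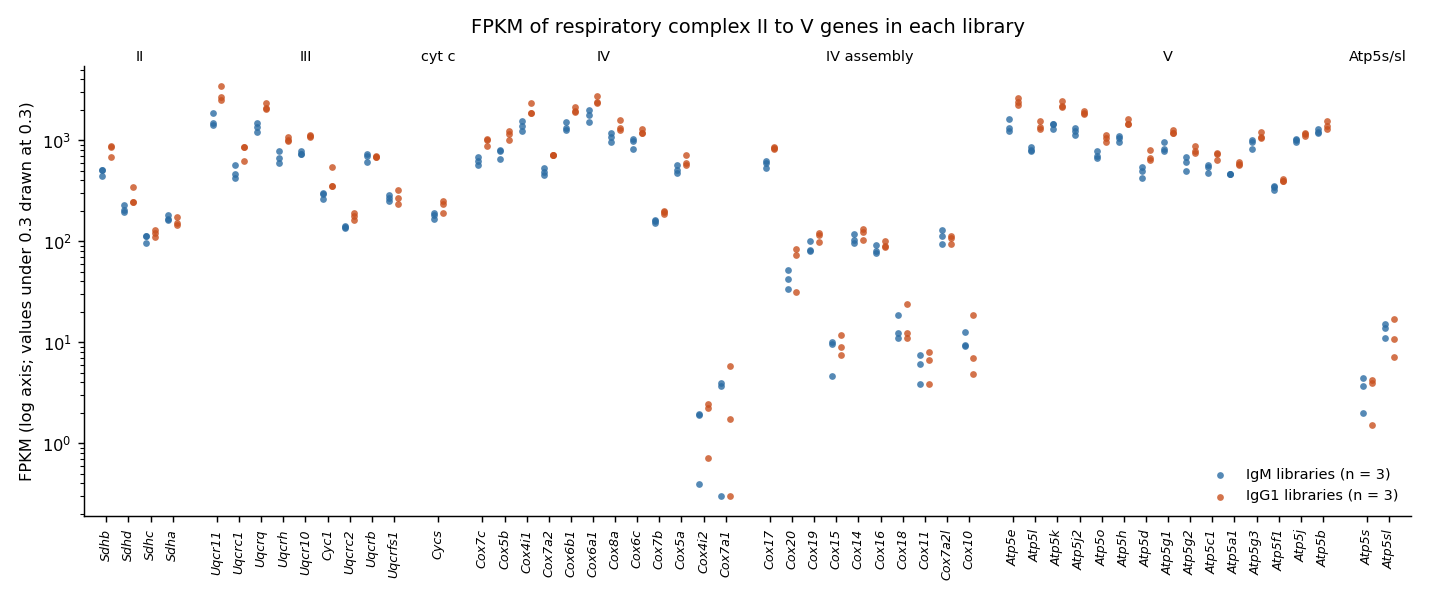
FPKM (log axis) of each of the 53 tested members in each library, grouped by complex, with 3 IgM points and 3 IgG1 points per gene. Most subunits of complexes III, IV and V lie above 100 FPKM with the IgG1 points above the IgM points, and Cox4i2, Cox7a1 and Atp5s lie lowest with mixed points.

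The direction of calls over all genes depended on the scaling, and the members' count moved with it. As deposited, 387 genes were higher and 160 lower. After quantile normalization 188 were higher and 200 lower, with 5 members higher and a members' median of 0.14. When each library was rescaled to its sum without Jchain, 177 genes were higher and 393 lower, and the median of all tested genes moved to -0.25. Against that lower median, the members' median was 0.14 and 15 members were higher. None of the 21 alternatives made a member lower at an adjusted p under 0.05.

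Single libraries also weighed on the count. Without IgM 1, 9 members were higher, without IgM 3 or without IgG1 3 there were 11, without IgG1 2 there were 10, and without IgM 2 or IgG1 1 there were 22 and 21. Over all 9087 tested genes, 387 were higher as deposited. That count fell to 78 without IgM 1, 185 without IgM 3, 121 without IgG1 3 and 110 without IgG1 2. It was 324 without IgM 2 and 394 without IgG1 1. The calls of 9 members held without any 1 library: Sdhb, Uqcr10, Uqcrq, Uqcr11, Cox7c, Atp5j2, Atp5k, Atp5l and Atp5e. With no filter on low values, or with limma's intensity trend left out, 0 members passed (34 and 21 at an unadjusted p under 0.05). Over all genes in these fits, 2 of 14922 and 3 of 9087 were higher. Near-identical processed pseudogenes exist for 20 of the 53 members, 9 of them among the 21 that rose, and the exons of 10 members, 2 of them among the 21, overlap another protein-coding gene, so their reads may be shared.

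Transcript length moved with these results. Each library's log2(FPKM + 1), taken as its deviation from the mean of the 6 libraries, correlated with the gene's median transcript length across the tested genes. Spearman's rho was 0.31, 0.15 and 0.29 in the IgM libraries and -0.15, -0.18 and -0.24 in the IgG1 libraries, so long transcripts stood higher in IgM and short ones in IgG1. The members are short: 35 of 53 fell in the shortest of 5 equal bins of tested genes by shortest protein-coding transcript (up to 1005 nt). In that bin 12.9% of 1808 genes were higher in IgG1 and the median log2 fold change was 0.19. Of the 35 members in that bin, 19 were higher and the median was 0.51. Among the 53 members, log2 length of the shortest transcript and log2 fold change correlated with a Pearson's r of -0.47 and a Spearman's rho of -0.48. This is a description over genes that share the same 6 libraries.

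When a smooth trend on length and GC content was removed from each library, using each gene's median transcript length, 4 members were higher: Sdhb, Atp5l, Atp5g1 and Cox17. The background of this fit was 1.35% of 9038 genes higher and 1.13% lower, the members' median was 0.11, and 19 of the 21 values shrank by more than their standard error. The annotated median lengths of Atp5g1 and Cox17 are set by long isoforms, and with each gene's shortest protein-coding transcript in its place 10 members were higher: Sdhb, Uqcr11, Uqcrc1, Uqcrq, Cox7c, Cox17, Atp5a1, Atp5e, Atp5j2 and Atp5l. The background there was 1.95% higher and 1.34% lower, and the members' median was 0.21. Sdhb, Atp5l and Cox17 were higher under the deposited values and both corrections, Cox17 only just with the shortest transcript (limma adjusted p = 0.04995). The part of length in what remained was not tested.

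**Figure D2:**
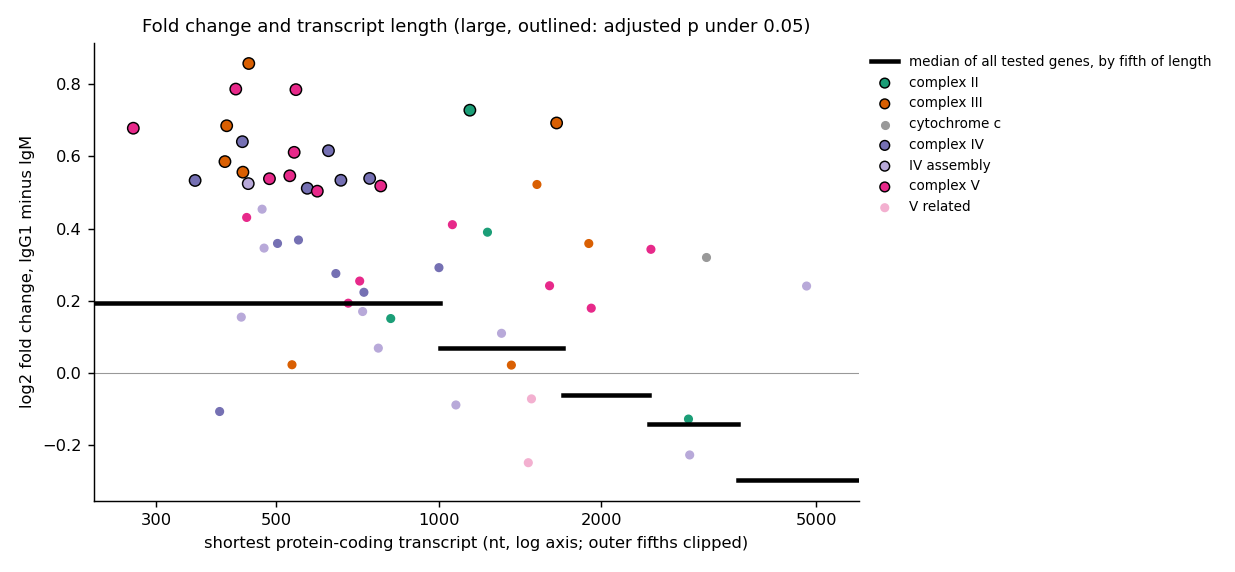
Log2 fold change (IgG1 minus IgM) of each member against the length of its shortest protein-coding transcript in nt (log axis), coloured by complex, with outlined larger points for an adjusted p under 0.05 and black bars for the median of all tested genes in each of 5 equal length bins. The called members sit mostly below 1005 nt and above the bar of the shortest bin at 0.19, while Sdhb and Uqcrc1 are longer.

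In complex II, the 4 subunits of succinate dehydrogenase differed from each other. Sdhb, the iron-sulfur subunit that carries electrons towards coenzyme Q, had FPKM of 446, 501 and 502 in the IgM libraries and 685, 858 and 871 in the IgG1 libraries. Every IgG1 value lay above every IgM value, and Sdhb rose 1.67-fold (log2 0.73, SE 0.12, limma adjusted p = 0.00694). It was higher in 20 of the 22 settings tried, with a log2 fold change of 0.45 after the length and GC correction (adjusted p = 0.0346) and 0.52 with the shortest transcript (adjusted p = 0.0188).

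Sdha, the flavoprotein that oxidises succinate and the direct partner of Sdhb, had FPKM of 165, 161 and 183 in IgM and 172, 143 and 151 in IgG1. These ranges overlapped, and its log2 fold change was -0.13 (95% interval -0.41 to 0.15, adjusted p = 0.611). Sdhc, a membrane anchor, had 113, 113 and 96.5 FPKM in IgM and 129, 110 and 120 in IgG1, again overlapping (log2 0.15, adjusted p = 0.579). Sdhd, the other membrane anchor, had 194, 226 and 204 FPKM in IgM and 243, 342 and 244 in IgG1. All 3 IgG1 values of Sdhd lay above the IgM values, but the difference did not pass the test (log2 0.39, adjusted p = 0.146).

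The ratio of Sdhb to Sdha FPKM, chosen after these values were seen, does not depend on how a library is scaled. It came to 2.70, 3.10 and 2.75 in IgM and to 3.98, 5.99 and 5.75 in IgG1, with no overlap. The group means were 2.85 ± 0.221 and 5.24 ± 1.10 (SD, n = 3 each). Sdha is the longer transcript, and the log2 fold change of Sdha was 0.02 with the shortest-transcript correction, against the 0.52 of Sdhb.

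Complex III had the highest median among the complexes, 0.56, with 5 of 9 subunits higher and 0 lower, where 4.26% of all tested genes were higher. Uqcr11, the smallest subunit, had FPKM of 1398, 1865 and 1487 in IgM and 2506, 2689 and 3425 in IgG1. The lowest IgG1 value was well above the highest IgM value, and Uqcr11 rose 1.82-fold (log2 0.86, SE 0.14, adjusted p = 0.0067), the largest change of any member in FPKM as deposited. Uqcrq, which binds near the cytochrome b core, had 1210, 1471 and 1344 FPKM in IgM and 2098, 2018 and 2351 in IgG1. The groups did not overlap, and it rose 1.61-fold (log2 0.69, SE 0.11, adjusted p = 0.00586).

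Uqcrc1, a large core protein on the matrix side, had FPKM of 422, 561 and 457 in IgM and 623, 857 and 859 in IgG1. All IgG1 values were higher, and it rose 1.62-fold (log2 0.69, SE 0.15, adjusted p = 0.0205). Uqcrh, the hinge protein that helps cytochrome c dock on cytochrome c1, had 590, 781 and 669 FPKM in IgM and 1005, 974 and 1065 in IgG1, and rose 1.49-fold (log2 0.59, adjusted p = 0.0148). Uqcr10, another small subunit, had 723, 724 and 782 FPKM in IgM and 1064, 1117 and 1095 in IgG1, and rose 1.47-fold (log2 0.56, adjusted p = 0.00819). In all of these genes the groups were fully separated.

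Not all of complex III moved. Uqcrfs1, the Rieske iron-sulfur protein that takes electrons from coenzyme Q, had FPKM of 250, 285 and 267 in IgM and 235, 265 and 318 in IgG1, overlapping fully (log2 0.02, 95% interval -0.27 to 0.31, adjusted p = 0.944). Uqcrb, chosen after its values were seen, had 726, 601 and 699 FPKM in IgM and 674, 703 and 675 in IgG1, which also overlapped (log2 0.02, adjusted p = 0.928). Cyc1, the cytochrome c1 subunit, had log2 0.52 (adjusted p = 0.0771) and Uqcrc2, the other core protein, 0.36 (adjusted p = 0.113), both with all IgG1 libraries above all IgM libraries. The ratio of Uqcrc1 to Uqcrfs1, chosen after the values were seen, came to 1.69, 1.97 and 1.72 in IgM and to 2.65, 3.23 and 2.70 in IgG1.

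The complex III count was 3 without IgM 1, IgM 3, IgG1 2 or IgG1 3 and 5 without IgM 2 or IgG1 1. Uqcrc1 and Uqcrh were the calls lost, with adjusted p of up to 0.103 and 0.0754. After the length and GC correction 0 complex III subunits passed (6 higher and 1 lower at an unadjusted p under 0.05), and with the shortest transcript 3 did.

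Cycs, cytochrome c itself, had FPKM of 165, 191 and 182 in IgM and 190, 249 and 236 in IgG1. The lowest IgG1 value, 190, fell just under the highest IgM value of 191, and the difference did not pass the test (log2 0.32, adjusted p = 0.19). Cycs is a long transcript among the members, and its value was 0.54 after the length and GC correction (adjusted p = 0.0779). It has 9 processed pseudogene copies in the genome whose reads the counting could have shared with it.

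In complex IV, 6 of 12 subunits were higher in IgG1 and 0 were lower, where 4.26% of all tested genes were higher. The median log2 fold change was 0.44. Cox7c had FPKM of 563, 676 and 628 in IgM and 876, 1014 and 1022 in IgG1, and rose 1.56-fold (log2 0.64, SE 0.11, adjusted p = 0.00867). Cox5b, a zinc-binding subunit on the matrix side, had 645, 791 and 778 FPKM in IgM and 1014, 1138 and 1238 in IgG1, and rose 1.53-fold (log2 0.62, SE 0.12, adjusted p = 0.0131). Neither gene's groups overlapped. Cox4i1, the widely expressed form of subunit 4, had 1235, 1550 and 1388 FPKM in IgM and 1846, 1878 and 2352 in IgG1, and rose 1.46-fold (log2 0.54, adjusted p = 0.0261).

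Cox7a2, the widely expressed form of subunit 7a, had FPKM of 456, 534 and 484 in IgM and 710, 707 and 713 in IgG1, and rose 1.45-fold (log2 0.53, adjusted p = 0.0133). Its IgG1 values were close together, with an SD of 3.14 FPKM (n = 3). Cox6b1, which faces the intermembrane space, had 1268, 1517 and 1331 FPKM in IgM and 1882, 1952 and 2115 in IgG1, and rose 1.45-fold (log2 0.53, adjusted p = 0.0133). Cox6a1, the complex IV subunit of highest mean FPKM, had 1505, 1977 and 1761 in IgM and 2406, 2313 and 2730 in IgG1, and rose 1.42-fold (log2 0.51, adjusted p = 0.0269). All 3 genes had IgG1 values above every IgM value.

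The remaining complex IV subunits did not pass the test. Cox8a, Cox6c, Cox7b and Cox5a had log2 fold changes of 0.37, 0.36, 0.29 and 0.28 with adjusted p of 0.0868, 0.0774, 0.165 and 0.208. The isoforms known from other tissues were near the filter: Cox7a1, the heart and muscle form of subunit 7a, had 3.93, 3.71 and 0 FPKM in IgM and 1.72, 0 and 5.82 in IgG1 (log2 -0.11, 95% interval -1.76 to 1.54, adjusted p = 0.95). Cox4i2, the lung form of subunit 4, had at most 2.45 FPKM in a library, while its partner form Cox4i1 had at least 1235.

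The complex IV count was 1 without IgM 1, 1 without IgG1 2, 2 without IgM 3, 2 without IgG1 3 and 6 without IgM 2 or IgG1 1, and Cox7c was the call that held each time. It was 0 after the length and GC correction (3 higher and 1 lower at an unadjusted p under 0.05) and 1, Cox7c, with the shortest transcript.

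Of the 10 Cox genes outside the core enzyme, 1 was higher, where 4.26% of all tested genes were, and their median was 0.16. Cox17, the copper chaperone that hands copper to the assembly of complex IV, had FPKM of 528, 597 and 616 in IgM and 846, 810 and 844 in IgG1, which did not overlap. It rose 1.44-fold (log2 0.52, SE 0.10, adjusted p = 0.0135). It lost the call without IgM 1 or IgG1 2, with an adjusted p of up to 0.0744, and its exons overlap those of Gm21987, so reads of both may mix.

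The other 9 had lower levels than Cox17 in all 6 libraries. Cox10, which makes heme for complex IV, had 9.37, 9.24 and 12.7 FPKM in IgM and 6.99, 4.84 and 18.5 in IgG1, with IgG1 values on both sides of the IgM range (log2 -0.23, adjusted p = 0.805). The remaining 8, Cox11, Cox14, Cox15, Cox16, Cox18, Cox19, Cox20 and Cox7a2l, had log2 fold changes from -0.09 in Cox7a2l to 0.45 in Cox20. Cox7a2l is known for joining complexes III and IV into supercomplexes. Over all complexes, 8 tested members had a mean under 20 FPKM in both groups, and 0 of them passed the test, at medians of 17.0 to 704 estimated fragments. By the same estimate every called member had at least 3748 fragments in each library.

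**Figure D3:**
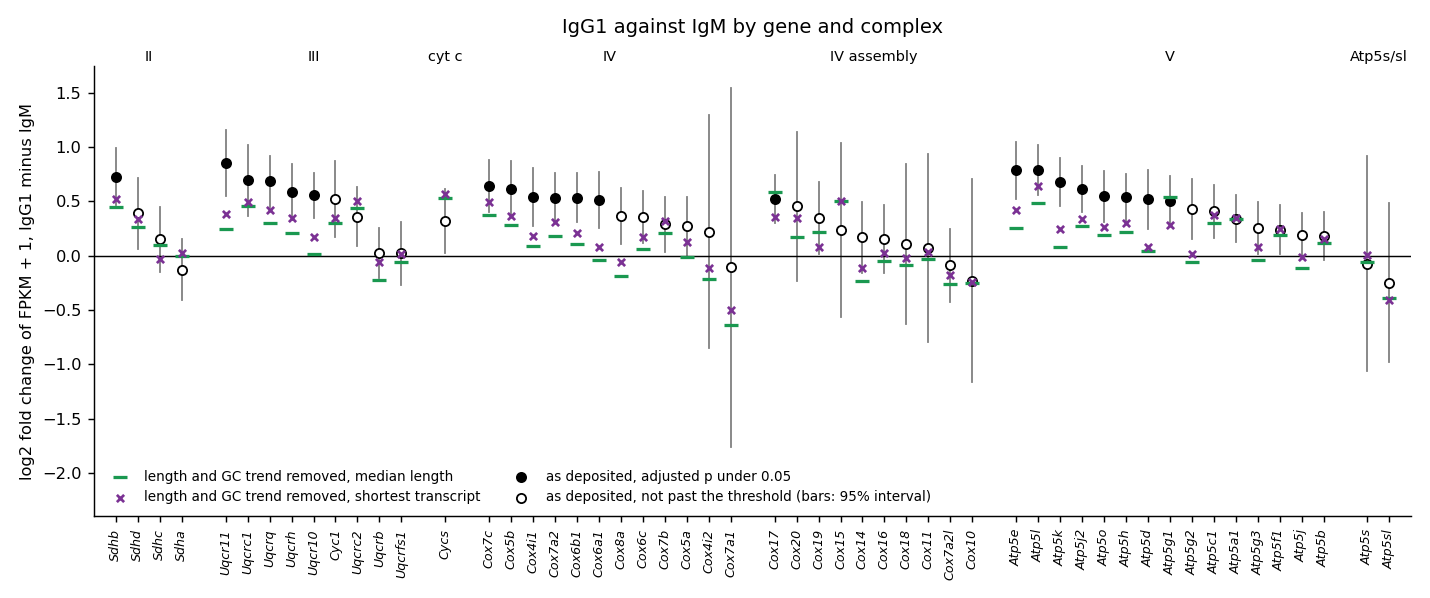
Log2 fold change of FPKM + 1 (IgG1 minus IgM) for each tested member by complex, with circles for the deposited values (filled at an adjusted p under 0.05, bars for the 95% interval), green dashes after removal of the length and GC trend with the median transcript length, and crosses with the shortest transcript. Filled circles run from 0.50 to 0.86, and most green dashes and crosses lie below the circle of their gene.

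Complex V had 8 of 15 subunits higher in IgG1 and 0 lower, where 4.26% of all tested genes were higher. The median log2 fold change was 0.50. In 14 of 15 all IgG1 libraries lay above all IgM libraries, against 13.7% of tested genes. All 3 small membrane subunits were higher, of which e and g help to hold the enzyme's dimers together. Atp5l, subunit g, had FPKM of 777, 852 and 798 in IgM and 1285, 1564 and 1349 in IgG1, and rose 1.73-fold (log2 0.79, SE 0.11, adjusted p = 0.00389). Atp5k, subunit e, had 1289, 1459 and 1433 FPKM in IgM and 2173, 2108 and 2414 in IgG1, and rose 1.60-fold (log2 0.68, SE 0.10, adjusted p = 0.00474). Atp5j2, subunit f, had 1127, 1305 and 1223 FPKM in IgM and 1801, 1845 and 1931 in IgG1, and rose 1.53-fold (log2 0.61, SE 0.10, adjusted p = 0.00645). Every IgG1 value of these genes stood above every IgM value. Atp5l has 13 processed pseudogene copies, the most of any member, whose reads the counting could have shared with it.

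In the F1 head, which makes the ATP, 2 of 5 subunits were higher. Atp5e, the small epsilon subunit of the central stalk, had FPKM of 1236, 1629 and 1331 in IgM and 2217, 2363 and 2630 in IgG1. The groups did not overlap, and Atp5e rose 1.72-fold (log2 0.79, SE 0.12, adjusted p = 0.00515). The delta subunit Atp5d was the other, at log2 0.52 (adjusted p = 0.0356). Atp5b, the catalytic beta subunit, had 1215, 1299 and 1186 FPKM in IgM and 1381, 1285 and 1530 in IgG1, where 1 IgG1 library fell inside the IgM range (log2 0.18, adjusted p = 0.33). The alpha subunit Atp5a1 and the gamma subunit Atp5c1 had log2 fold changes of 0.34 (adjusted p = 0.0629) and 0.41 (adjusted p = 0.053), with no overlap.

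The ratio of Atp5e to Atp5b, chosen after the values were seen, came to 1.02, 1.25 and 1.12 in IgM and to 1.61, 1.84 and 1.72 in IgG1. No IgG1 value came near the IgM values, and the means were 1.13 ± 0.119 and 1.72 ± 0.117 (SD, n = 3 each). Atp5b is the longer transcript of the pair, and once the length and GC trend was removed the log2 fold changes were 0.26 in Atp5e (adjusted p = 0.0737, no longer called) and 0.11 in Atp5b. With the shortest transcript they were 0.42 and 0.16.

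In the side stalk, which keeps the head from turning, 2 of 4 subunits were higher. Atp5o, the subunit that joins the stalk to the head, had FPKM of 665, 781 and 695 in IgM and 950, 1044 and 1134 in IgG1, and rose 1.46-fold (log2 0.55, adjusted p = 0.0148). Atp5h, subunit d, had log2 0.54 (adjusted p = 0.0117). Atp5f1 and Atp5j, the b and F6 subunits, had 0.24 and 0.19 with adjusted p of 0.195 and 0.255, although their groups did not overlap either. The exons of Atp5o overlap those of Donson in the annotation, so reads of both may mix.

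The complex V count was 4 without IgM 1, IgM 3 or IgG1 3, 5 without IgG1 2, 9 without IgM 2 and 8 without IgG1 1, and Atp5e, Atp5l, Atp5k and Atp5j2 were the calls that held each time. Atp5o and Atp5d were not called without IgM 1, IgM 3, IgG1 2 or IgG1 3 (adjusted p up to 0.0794 and 0.164), nor Atp5h without IgM 1, IgM 3 or IgG1 3 (up to 0.0611). The complex V count was 2 after the length and GC correction, Atp5l and Atp5g1, and 4 with the shortest transcript. Atp5s and Atp5sl had log2 fold changes of -0.07 and -0.25 at no more than 16.8 FPKM in a library, with adjusted p of 0.944 and 0.725, and neither passed at an unadjusted p under 0.05.

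The membrane ring of complex V is built from a single mature protein that 3 genes encode, each with its own mitochondrial targeting sequence. Atp5g1 had FPKM of 783, 967 and 809 in IgM and 1248, 1186 and 1180 in IgG1, and rose 1.41-fold (log2 0.50, SE 0.11, adjusted p = 0.0203). Atp5g2 had 500, 683 and 607 FPKM in IgM and 741, 777 and 883 in IgG1 (log2 0.43, adjusted p = 0.0715). Atp5g3 had 818, 1010 and 956 FPKM in IgM and 1202, 1066 and 1047 in IgG1 (log2 0.25, adjusted p = 0.205). The groups of all 3 paralogues were separate, and as deposited Atp5g1 alone passed the test. Atp5g1 lost the call without IgM 1, IgM 3, IgG1 2 or IgG1 3, with an adjusted p of up to 0.0987, and also when rescaled without Jchain (0.0803), after quantile normalization (0.393) and with the shortest transcript (0.0933). Atp5g2 passed without IgM 2 (adjusted p = 0.0424) and with the library number as a block (0.0462).

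As a share of the FPKM summed over the 3 genes, Atp5g1 made up 37.3%, 36.3% and 34.1% in IgM and 39.1%, 39.2% and 37.9% in IgG1. Atp5g3 made up 38.9%, 38.0% and 40.3% in IgM and 37.7%, 35.2% and 33.6% in IgG1. The share of Atp5g1 was higher and that of Atp5g3 lower in every IgG1 library, by 2.83 and -3.57 percentage points, but 3 libraries against 3 cannot reach a two-sided exact permutation p below 0.1. Both had that p of 0.1 (0.15 after Benjamini-Hochberg adjustment over 3 shares). The share of Atp5g2 came to 23.8%, 25.7% and 25.6% in IgM and to 23.2%, 25.7% and 28.4% in IgG1, which overlapped (difference 0.733 percentage points, exact permutation p = 0.8). The length and GC correction turned it to -4.08 percentage points and raised that of Atp5g1 to 9.58. That correction used a median length of 2675.5 nt for Atp5g1, set by long isoforms, against 586 for Atp5g2 and 718.5 for Atp5g3. With the shortest transcripts the log2 fold changes were 0.28, 0.02 and 0.08 in that order, against 0.54, -0.06 and -0.04 with the median lengths.

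**Figure D4:**
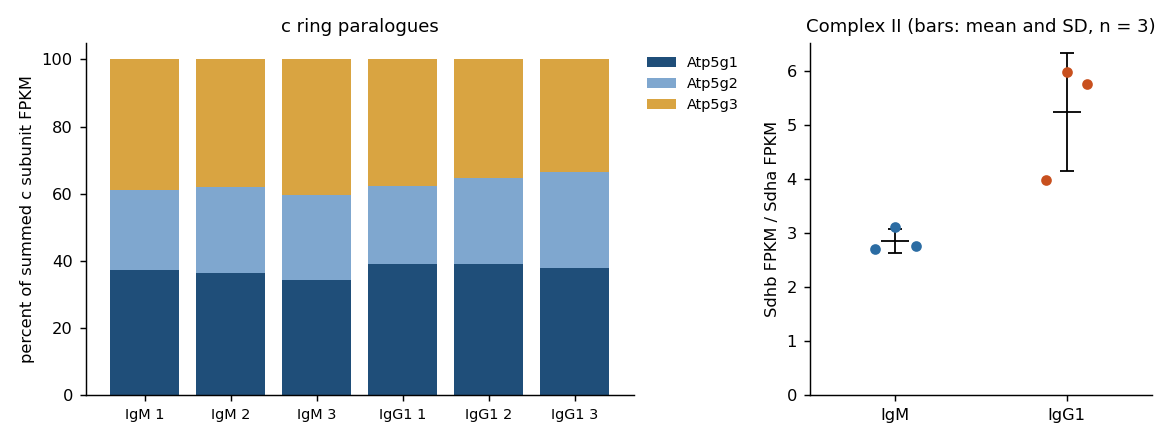
Left, the percent of summed c subunit FPKM from Atp5g1, Atp5g2 and Atp5g3 in each library; right, the ratio of Sdhb to Sdha FPKM in each library, with bars for the mean and SD (n = 3). The paralogue shares differ by a few percentage points between groups, while the Sdhb to Sdha ratio runs from 2.70 to 3.10 in IgM and from 3.98 to 5.99 in IgG1.

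Summed over all its genes, with Sdhb and Cox17 included, each complex took a larger share of all FPKM in the IgG1 libraries. This is a description on which no test was run. The 53 members together took 3.98% ± 0.139 of the summed FPKM in IgM and 4.94% ± 0.131 in IgG1 (SD, n = 3 each). Complex III took 0.809% ± 0.0231 and 1.07% ± 0.0699, complex IV subunits 1.18% ± 0.0659 and 1.44% ± 0.0517, and complex V 1.70% ± 0.0451 and 2.09% ± 0.0249. Complex II, the least abundant, took 0.127% ± 0.00309 and 0.154% ± 0.0110. The libraries of the 2 groups did not overlap in any of these sums. Cytochrome c alone overlapped, at 0.0226% to 0.0240% in IgM and 0.0223% to 0.0284% in IgG1. The sums were not corrected for the length trend. In complex II the sum was 969 FPKM in IgM and 1356 in IgG1 on average, of which Sdhb made up 483 and 805. The means of Sdha, Sdhc and Sdhd were 170, 107 and 208 FPKM in IgM and 156, 119 and 276 in IgG1. Among the 10 Cox genes outside the core enzyme it was 1049 and 1364, of which Cox17 made up 580 and 833. Sums and shares without Sdhb or Cox17 were not taken. The shares above therefore do not show a rise in the other complex II genes or the other Cox genes outside the core enzyme.

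**Figure D5:**
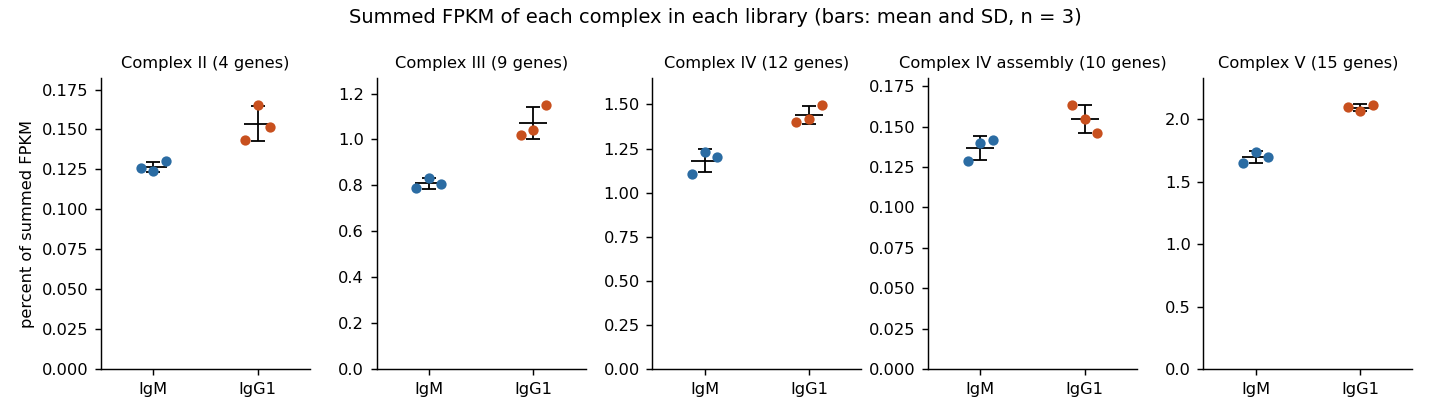
Percent of the summed FPKM of each library taken by the genes of complex II, III, IV, IV assembly and V, with 3 IgM and 3 IgG1 points per panel and bars for the mean and SD (n = 3), each axis starting at 0. The IgG1 points lie above all IgM points in every panel, least clearly in the IV assembly panel, where the values run from 0.129% to 0.142% in IgM and 0.146% to 0.164% in IgG1.

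Genes that serve the same complexes under names outside the rule were counted in the same fit, where 4.26% of all tested genes were higher. Of 4 subunits that carry other names, 2 were higher: Usmg5, a membrane subunit of complex V, rose by a log2 of 0.76 (adjusted p = 0.00749) and 2010107E04Rik, another small complex V subunit, by 0.45 (adjusted p = 0.0169). Usmg5 had FPKM of 1214, 1468 and 1409 in IgM and 2360, 2651 and 1939 in IgG1, and the groups were separate. It held without any 1 library, whereas 2010107E04Rik did not without IgM 1, IgM 3, IgG1 2 or IgG1 3 (adjusted p up to 0.0863). After the length and GC correction Usmg5 was still called (log2 0.41, adjusted p = 0.0329) and 2010107E04Rik was not (log2 0.11, adjusted p = 0.528). Ndufa4, a complex IV subunit named for complex I, and Atpif1, the inhibitor of complex V, had 0.32 (adjusted p = 0.1) and 0.56 (adjusted p = 0.052). The 13 subunits that mitochondrial DNA encodes were not analysed here.

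Of 28 tested assembly factors with other names, 2 (7.14%) were higher and 0 lower, at a median of 0.18, a share near the 4.26% of all tested genes. Uqcc2, which helps build cytochrome b into complex III, had FPKM of 192, 262 and 187 in IgM and 406, 418 and 504 in IgG1, and rose by a log2 of 1.06 (SE 0.15, adjusted p = 0.00458). Its IgG1 values stood well above its IgM values. Pet100, an assembly factor of complex IV, rose by 0.70 (adjusted p = 0.0458) from a mean of 26.9 FPKM to 44.1 FPKM. Uqcc2 held without any 1 library, and Pet100 was not called without any of the 6 in turn (adjusted p up to 0.166). After the length and GC correction Uqcc2 was still called (log2 0.46, adjusted p = 0.0364) and Pet100 was not (log2 0.42, adjusted p = 0.243).

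Of 16 tested regulators of mitochondrial gene expression and biogenesis, 1 (6.25%) was higher and 0 lower, at a median of -0.04, also near that share. Slirp, which stabilises mitochondrial messenger RNA, rose by a log2 of 0.47 (adjusted p = 0.0357). Of 13 genes of coenzyme Q synthesis 0 passed limma's test (2 higher and 1 lower at an unadjusted p under 0.05), and the most abundant, Coq9 and Coq7, had -0.05 and 0.05. Of 10 genes of the cristae and inner membrane 1 was higher, the prohibitin Phb, by 0.67 (adjusted p = 0.037). Of the 6 libraries left out in turn, Slirp and Phb kept the call without IgG1 1, and not without the others (adjusted p up to 0.139 and 0.179). After the length and GC correction Slirp was still called (log2 0.53, adjusted p = 0.0232) and Phb was not (log2 0.50, adjusted p = 0.0992). For complex I, 23 of 44 tested Nduf genes were higher and 0 lower, at a median of 0.47, and 6 of these calls held without any 1 library. After the length and GC correction 9 were higher and 1 lower, at a median of 0.19, and with the shortest transcript 9 were higher and 0 lower, at 0.27.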

How the data were processed

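Bulk RNA was sequenced from sorted mouse splenic plasma cells. Per the labels' protocols, RNA was extracted with the miRNeasy Micro kit, cDNA was made with SMART-Seq HT and libraries with Nextera XT, kits that do not mark strand. The deposited values are FPKM per gene symbol, per the file headers. The submitters' processing notes name Cufflinks 2.2.1 with Cuffdiff, TopHat2 2.1.1 and Bowtie2 2.3.5.1, and the build mm10. Which annotation and library scaling were used is not given in the sources used here. FPKM divides by transcript length, so uneven coverage of long transcripts moves the values.

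Genes with 3 or more of 6 libraries at an FPKM of 1 or above were tested as log2(FPKM + 1) with limma 3.58.1 in R 4.3.3 (intensity trend, 2 groups, no covariates, two-sided), with Benjamini-Hochberg adjustment over all 9087 genes and a threshold of 0.05. The length and GC correction removed, per library, splines with 4 degrees of freedom fitted to each gene's deviation from its mean over the libraries, with GENCODE vM21 lengths. Pseudogene copies were found with blastn 2.17.0 at 90% identity over 150 nt. Promoter windows are from RefSeq; no protein sequences were used. Tested on simulated data (9087 genes, IgG1 against IgM, genes of mean above 100 FPKM), the test recovered 12%, 78%, 98% and 100% of 50 genes each changed by a log2 of 0.3, 0.5, 0.8 and 1.5, with 3 false calls among 147. The simulated noise was independent between genes and held no length trend. These rates therefore do not cover the length trend seen between the groups.

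The members and lists were chosen with earlier results of these data known. Values in each library are given for all complex II members, Cycs, the c ring paralogues, up to 5 called members of largest change per group, and the most abundant and least changed member of each; for other lists, up to 3 called genes, or the 2 most abundant. Other genes with values were chosen after their values were seen. The main fit did not use the library numbers as pairs. Same-numbered libraries correlated at no more than 0.101 in their deviations from the group means, which cannot settle whether they are pairs. With the number as a block, 22 members and 432 of 9087 tested genes were higher.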

Additional observations from a re-analysis of the deposited data

How the results depend on the processing

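The count of members lower in IgG1 at an adjusted p under 0.05 was 0 under all 21 alternatives. Over all genes, those lower were only 4 with no filter and 5 with no intensity trend. At an unadjusted p under 0.05, 3 members were lower after quantile normalization and 2 without Jchain. With the length trend removed, alone or with GC, 2 were lower. The count of members higher, 21, was 0 with no filter and 0 with no intensity trend, 5 after quantile normalization, 15 when rescaled without Jchain (the share of all calls that were higher was 70.7% as deposited, 48.5% after quantile normalization and 31.1% without Jchain), 4 with the length and GC trend removed, 5 with the length trend alone removed, and 10 with the shortest transcript, an alternative chosen after seeing the data. For complex III, 5 became 0, 0, 2, 5, 0, 1 and 3 under these in turn, for complex IV 6 became 0, 0, 0, 3, 0, 0 and 1, and for complex V 8 became 0, 0, 2, 6, 2, 2 and 4. The counts at an unadjusted p under 0.05 were 7, 5 and 6 in complex III with no filter, no intensity trend and the length and GC correction, 9, 6 and 3 in complex IV (3 after quantile normalization and 3 with the length trend alone removed), and 13 and 8 in complex V with no filter and no intensity trend. The members' median of 0.37 became 0.14 after quantile normalization, 0.14 without Jchain, 0.11 with length and GC removed, 0.12 with length alone and 0.21 with the shortest transcript. Without 1 library each, members higher ranged from 9 to 22, complex III from 3 to 5, complex IV from 1 to 6, complex V from 4 to 9, the median from 0.31 to 0.45, and the share difference of Atp5g2 from -0.591 to 2.00 percentage points (0.733 with all libraries). Length and GC correction gave -4.08 for that share, with the median length of Atp5g1 set by long isoforms. Over all tested genes, those higher were 2 with no filter, 3 with no intensity trend and 78 to 394 without 1 library each. The cause of these moves was not tested.

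The replicate block, which adds the library number as a term, gave 22 members higher (5, 6 and 9 in complexes III, IV and V), with 432 of 9087 tested genes higher. Together with the length and GC correction it gave 8 members higher (2, 1 and 2) and a median of 0.11, with 190 of 9038 genes higher. Same-numbered libraries correlated at 0.101, -0.0315 and -0.000571 in their deviations from the group means. IgM 1 correlated best with IgG1 1, and IgM 2 with IgG1 3 (0.0958). With 3 libraries per group such small values cannot settle whether the numbers pair the samples. The exact sign-flip test of the block cannot go below 0.25 for the Atp5g shares.

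With length and GC removed, members with a positive value fell from 47 to 34. Among the genes whose library values were given by rule, those that changed sign were not past the threshold as deposited, except Cox6a1 at -0.035 with length and GC removed (with or without the block). The others of these genes were Sdha at 0.023 and Sdhc at -0.028 with the shortest transcript, Sdhc at -0.080 without Jchain, Atp5g2 at -0.061 and Atp5g3 at -0.042 with length and GC removed (with or without the block), Atp5g3 at -0.12 after quantile normalization and -0.094 with length removed, and Atp5b at -0.18 after quantile normalization and -0.053 without Jchain. Uqcrfs1 gave -0.16 after quantile normalization, -0.21 without Jchain, -0.023 with array weights, -0.060 with length and GC removed (with or without the block), -0.15 with length removed, and -0.095 to 0.12 over libraries left out. Cox7a1 gave 0.055 after quantile normalization and -0.86 to 0.59 over libraries left out, and Cox10 -0.73 to 0.14. Of the 8 members under 20 FPKM 0 passed, and the power of the test at such levels was not simulated.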
